A study of Mus musculus with 39 samples.

Results

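The fibrillar collagen genes studied here are the 6 genes for the chains of collagens I, III and V: Col1a1, Col1a2, Col3a1, Col5a1, Col5a2 and Col5a3. They were taken by symbol from a table of 30012 genes, 14419 of which had enough counts to be tested, all 6 collagen genes among them. The cells were lung fibroblasts of wild-type C57BL/6 mice, obtained by removing cells that carry CD45, CD31, EpCAM, CD146 or Ter119 with an AutoMACS separator, kept in serum-containing medium, and starved of serum for 24 h before treatment. C1q, the recognition subunit of the first complement component, was given at 1, 10 or 100 µg/ml for 2, 24, 48 or 72 h, and untreated cells were taken at 0 h. Each of these 13 groups had 3 libraries, 39 in all, made by sequencing the 5′ ends of transcripts.

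No untreated cells of later times were analysed here, so against untreated cells C1q and time in culture cannot be told apart, while doses were compared at equal time. The labels do not say whether the 3 libraries of a group came from separate cultures or animals, so the p-values measure the spread between libraries, which may be technical. Library totals were between 1806106 and 3012518 counts. In the 24 h group of 1 µg/ml, library 3 differed from the other 2 more than they did from each other, with a chi-square per degree of freedom of 8.03 and 8.48 against them and 3.27 between them. Levels are given as CPM, the count of a gene scaled to a common library total with TMM factors, which compares 1 gene between libraries. All 8 fibroblast markers were detected in every library, with Pdgfra at no fewer than 876 counts and Vim at no fewer than 1981 counts. In bulk RNA, fewer cells of a type and less RNA per cell cannot be told apart.

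Fibrillar collagens are secreted as procollagens, trimers whose propeptides are cut off before the molecules line up into fibrils and are cross-linked. Collagen I is a trimer of chains from Col1a1 and Col1a2, collagen III is a trimer of the Col3a1 chain alone, and collagen V, built from Col5a1 and Col5a2 chains and in some tissues the Col5a3 chain, sits inside collagen I fibrils and limits their width. In the lung, fibroblasts make most of this collagen, which gives the tissue its tensile strength and builds up in fibrosis.

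Col3a1 (collagen alpha-1(III), gene ID 12825) and Col5a2 (collagen alpha-2(V), gene ID 12832) are neighbours on chromosome 1 in GRCm38.p6, at 45311538 to 45349706 and 45374331 to 45503282. Col1a1 (gene ID 12842) lies on chromosome 11 at 94936224 to 94953042, Col1a2 (gene ID 12843) on chromosome 6 at 4505618 to 4541543, Col5a1 (gene ID 12831) on chromosome 2 at 27886381 to 28039510, and Col5a3 (gene ID 53867) on chromosome 9 at 20770050 to 20815117. The 250 bases before the annotated start are shown for Col1a2, at chr6:4505368-4505617, and for Col3a1, at chr1:45311288-45311537, both on the plus strand, because these 2 genes gave the dose results that held best. Sequences are from RefSeq (GRCm38.p6), 5′ to 3′, with matches to the motifs CCAAT and TATAAA and to the motif GGGCGG, or their reverse complements, in capitals.
Col1a2: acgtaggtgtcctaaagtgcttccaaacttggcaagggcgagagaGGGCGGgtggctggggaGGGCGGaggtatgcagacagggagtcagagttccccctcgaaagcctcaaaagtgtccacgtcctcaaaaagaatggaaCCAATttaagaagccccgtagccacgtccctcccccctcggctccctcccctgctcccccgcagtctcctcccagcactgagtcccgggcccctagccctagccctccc
Col3a1: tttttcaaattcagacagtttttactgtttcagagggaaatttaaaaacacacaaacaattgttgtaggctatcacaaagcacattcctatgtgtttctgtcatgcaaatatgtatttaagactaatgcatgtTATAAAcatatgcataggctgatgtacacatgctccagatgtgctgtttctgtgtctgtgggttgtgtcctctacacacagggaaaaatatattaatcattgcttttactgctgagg
The Col1a2 window had a GC content of 62.0% and the Col3a1 window of 35.2%, against a median of 52.4% over all 32851 windows in the table. In Col1a2, CCAAT lay 109 to 105 bases before the start, and GGGCGG lay 205 to 200 and 188 to 183 bases before it, without overlap. In Col3a1, TATAAA lay 117 to 112 bases before the start. Over all windows, 33.8% held CCAAT, 12.4% held TATAAA and 32.7% held GGGCGG on either strand. These matches describe letters in a window and no more.

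Col3a1 showed the clearest change of the 6 genes with time. At 1 µg/ml its 3 libraries had 1830, 1693 and 1977 CPM at 2 h, 2461, 2588 and 3274 CPM at 24 h, 3318, 3146 and 3495 CPM at 48 h, and 3256, 3067 and 2937 CPM at 72 h. At 10 µg/ml they had 1861, 1706 and 1634 CPM at 2 h, 2952, 2962 and 2980 CPM at 24 h, 3170, 3715 and 3326 CPM at 48 h, and 2966, 3062 and 3137 CPM at 72 h. At 100 µg/ml they had 1505, 1472 and 1583 CPM at 2 h, 1752, 1908 and 1944 CPM at 24 h, 2875, 2742 and 2641 CPM at 48 h, and 3378, 3434 and 3740 CPM at 72 h. Untreated cells had 1954, 1795 and 1709 CPM. At 2 h all 3 libraries of 100 µg/ml lay below every untreated library, while those of 1 and 10 µg/ml overlapped with untreated cells. From 24 h on, every library at 1 and 10 µg/ml was above all untreated libraries, while at 100 µg/ml the libraries overlapped with untreated cells at 24 h and lay above them at 48 and 72 h.

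In the edgeR quasi-likelihood fit over all genes and libraries, with p-values adjusted by Benjamini-Hochberg over the 14419 genes and a threshold of 0.05, Col3a1 rose against untreated cells at 24 h by 0.61 ± 0.08 (log2 ± SE) with 1 µg/ml of C1q, by 0.70 ± 0.08 with 10 µg/ml, with adjusted p of 1.89e-07 and 6.08e-09. At 100 µg/ml the 24 h difference was 0.04 ± 0.08 (adjusted p = 0.755). The 48 h rises of Col3a1 were 0.87, 0.90 and 0.60 for 1, 10 and 100 µg/ml, those at 72 h 0.76, 0.75 and 0.95, with SEs of 0.08. These 8 rises passed the threshold under every alternative setting and with each library of the groups compared left out in turn. At 2 h no difference of Col3a1 from untreated cells passed with all libraries. When only the libraries compared were fitted, that at 100 µg/ml was -0.23 and passed as lower (edgeR, adjusted p = 0.023).

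Col1a1 went the other way at the lower doses. Its libraries had 1566, 1163 and 1557 CPM at 2 h with 1 µg/ml, 1339, 1411 and 1777 CPM at 24 h, 1170, 1056 and 1227 CPM at 48 h, and 1039, 877 and 907 CPM at 72 h. At 10 µg/ml it had 1542, 1532 and 1549 CPM at 2 h, 1549, 1440 and 1559 CPM at 24 h, 1033, 1313 and 1267 CPM at 48 h, and 890, 963 and 975 CPM at 72 h. At 100 µg/ml it had 1430, 1452 and 1568 CPM at 2 h, 1174, 1289 and 1356 CPM at 24 h, 1331, 1127 and 1256 CPM at 48 h, and 1236, 1130 and 1355 CPM at 72 h. Untreated cells had 1503, 1274 and 1169 CPM. At 72 h all 6 libraries of the lower doses lay below every untreated library, and those of 100 µg/ml overlapped with untreated cells.

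At 72 h Col1a1 fell by 0.48 ± 0.11 at both 1 and 10 µg/ml (log2, edgeR, adjusted p = 0.000285 and 0.000281), and both falls passed under every alternative. At 100 µg/ml the difference was -0.09 ± 0.11 (adjusted p = 0.533). With all libraries, no other time gave Col1a1 a difference past the threshold against untreated cells. When only the libraries compared were fitted, the 24 h difference at 10 µg/ml was 0.23 and passed as higher (adjusted p = 0.00495). With only library 3 of 1 µg/ml kept at 24 h, and its spread taken from the other groups, the difference there was 0.40 and passed as higher (adjusted p = 0.025). With untreated library 3 left out, the 48 h difference at 1 µg/ml was -0.31 and passed (adjusted p = 0.04).

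Col5a3, a chain of some collagen V trimers, was counted at a low level, between 10 and 53 counts a library. Its libraries at 72 h had 5.54, 8.52 and 4.14 CPM at 1 µg/ml, 6.84, 5.33 and 7.56 CPM at 10 µg/ml, and 10.6, 12.5 and 13.05 CPM at 100 µg/ml, and untreated cells had 13.6, 12.6 and 11.5 CPM. Like Col1a1, it was below every untreated library at the lower doses only. With 1 µg/ml it fell by 1.04 ± 0.29, and with 10 µg/ml by 0.94 ± 0.28 (log2, edgeR, adjusted p = 0.00381 and 0.00615), calls that held under every alternative.

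Col1a2, the partner of Col1a1 in collagen I, had 1601, 1614 and 1475 CPM at 72 h with 1 µg/ml, 1474, 1556 and 1519 CPM with 10 µg/ml and 1844, 1900 and 2035 CPM with 100 µg/ml, and untreated cells had 1636, 1459 and 1428 CPM. Only the libraries at 100 µg/ml stood above all untreated libraries at that time. Col1a2 rose there by 0.35 ± 0.08 (log2, edgeR, adjusted p = 0.000584), under every alternative as well. Smaller differences of 0.25 at 24 h with 1 µg/ml, and of 0.22 at 48 h with 1 and with 10 µg/ml, also passed (adjusted p = 0.0236, 0.0413 and 0.0378). They did not hold: at 24 h, and at 48 h with 10 µg/ml, each call was lost without C1q library 2 or 3 or without untreated library 2 or 3, with values of 0.17 to 0.24 and of 0.11 to 0.16, and at 48 h with 1 µg/ml it was lost without any 1 of the 6 libraries, with values of 0.14 to 0.24. Both 48 h calls were also lost with no filter on low counts (0.22 and 0.21), the 48 h call at 1 µg/ml with DESeq2 and RLE scaling (0.21 each), and the 24 h call when only the libraries compared were fitted (0.29).

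Col5a2, which pairs with Col5a1 in collagen V, had 945, 891 and 918 CPM at 72 h with 1 µg/ml, 886, 945 and 966 CPM with 10 µg/ml and 896, 957 and 983 CPM with 100 µg/ml, and untreated cells had 842, 739 and 806 CPM. All 9 C1q libraries at 72 h were above the untreated ones. The differences of 0.21, 0.23 and 0.25 at 1, 10 and 100 µg/ml passed (log2, SE 0.08, edgeR, adjusted p = 0.0477, 0.0266 and 0.0138), as did 0.22 and 0.29 at 48 h with 1 and 10 µg/ml (adjusted p = 0.04 and 0.00531). None of these 5 calls held without untreated library 2, where the values were 0.13 to 0.20. At 1 µg/ml they were lost without any 1 of the 6 libraries (0.13 to 0.23), at 48 h with 10 µg/ml without C1q library 2 (0.21), and at 72 h with 10 and 100 µg/ml without untreated library 3 or C1q library 2 or 3 (0.20 to 0.23). With no filter on low counts, 4 of the 5 were lost (0.21 to 0.22), all but 48 h at 10 µg/ml.

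Col5a1, the chain that most collagen V trimers need, passed against untreated cells only at 2 h with 10 µg/ml when all libraries were used. At 2 h it had 156, 151 and 166 CPM with 1 µg/ml, 164, 160 and 167 CPM with 10 µg/ml and 138, 143 and 142 CPM with 100 µg/ml, and untreated cells had 152, 122 and 111 CPM. The libraries at 10 µg/ml lay above all untreated libraries, and those at 1 and 100 µg/ml overlapped with them. The difference at 10 µg/ml was 0.35 ± 0.11 (log2, edgeR, adjusted p = 0.0367), and the call was lost without untreated library 2 or 3 or any 1 of the C1q libraries (0.23 to 0.35). At 1 µg/ml the difference of 0.30 did not pass, and did without untreated library 1 (0.44, adjusted p = 0.034). From 24 h on no difference of Col5a1 from untreated cells passed, except that without untreated library 3 the value of -0.32 at 72 h with 1 µg/ml did (adjusted p = 0.045).

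**Figure D1:**
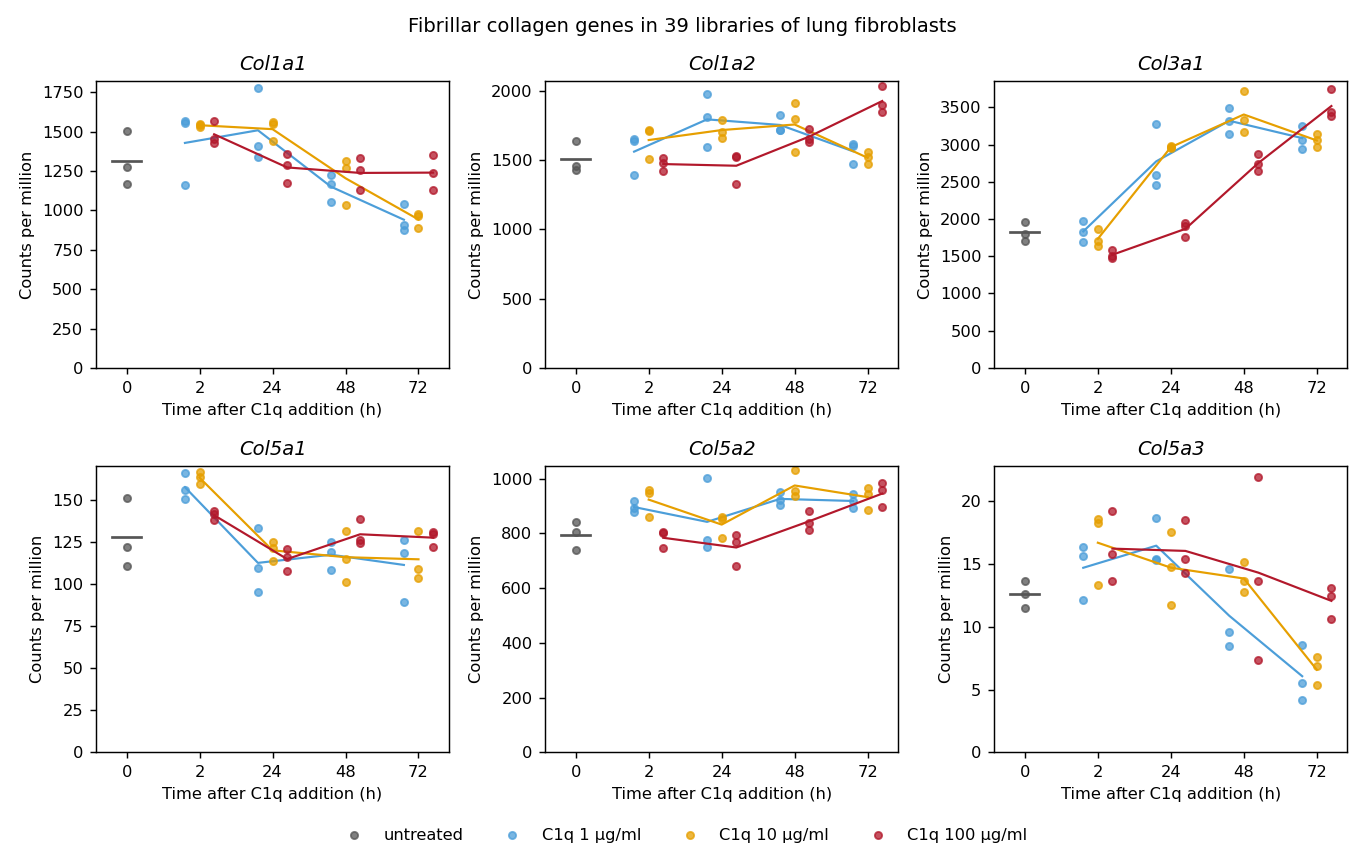
CPM of each of the 6 genes (vertical axes, each from 0) against time after C1q addition in hours (horizontal axes, equally spaced), with 1 point per library, lines through the means of the 3 libraries of each dose, and a bar at the mean of untreated cells at 0 h. Col3a1 is higher at 48 and 72 h than at 2 h at every dose, and at 72 h Col1a1 and Col5a3 lie below the untreated level at 1 and 10 µg/ml and near it at 100 µg/ml.

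Counted over the 6 genes against untreated cells, 0, 1 and 0 passed at 2 h at 1, 10 and 100 µg/ml, where 6.15%, 12.7% and 5.16% of all tested genes did. At 24 h, 2, 1 and 0 passed, against 25.2%, 27.8% and 36.7% of all genes. At 48 h, 3, 3 and 1 passed, against 33.1%, 34.5% and 40%, and at 72 h 4, 4 and 3 passed, against 38.2%, 39.9% and 45.8%. Where the count was 0, at 1 and 100 µg/ml at 2 h and at 100 µg/ml at 24 h, 2, 1 and 0 genes had an unadjusted p under 0.05, and 0 passed with DESeq2. These comparisons all share the 3 untreated libraries. The median log2 difference of the 6 genes at 72 h was -0.08 at 1 µg/ml, -0.08 at 10 µg/ml and 0.12 at 100 µg/ml, beside 0.02, 0.02 and 0.05 over all tested genes.

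Ordered by mean level over the 13 groups, Col3a1 ran 2.31-fold, with the lowest mean of 1520 ± 57.0 CPM at 100 µg/ml and 2 h, and the highest of 3517 ± 195 CPM at 100 µg/ml and 72 h (SD, n = 3). Of its 12 neighbouring pairs of groups in that order, 2 had libraries that did not overlap: the lowest group and the next one, 10 µg/ml at 2 h, and 100 µg/ml at 24 h (1868 ± 102 CPM) and 100 µg/ml at 48 h (2753 ± 118 CPM). Col1a1 ran 1.64-fold, with 1 such gap, between 10 µg/ml at 72 h (943 ± 46.1 CPM) and 1 µg/ml at 48 h (1151 ± 86.8 CPM). Col5a3 ran 2.75-fold and Col5a1 1.47-fold, each with 1 gap, and Col1a2 (1.32-fold) and Col5a2 (1.30-fold) with none.

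Against this background of time, the comparison of doses at equal time asked whether the amount of C1q mattered. The 10 and 1 µg/ml groups did not differ in any of the 6 genes past the threshold at 2, 24, 48 or 72 h, where 0.839%, 0.0485%, 0.208% and 0% of all tested genes passed by edgeR. The differences of Col3a1 were -0.08, 0.10, 0.04 and -0.01 and those of Col1a1 were 0.11, 0.01, 0.07 and 0.00 (log2, SE 0.08 and 0.11). At an unadjusted p under 0.05, and with DESeq2, the count was 0 of 6 as well at each of these times.

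At 24 h the higher dose gave lower levels of 2 of the 6 genes, 100 against 1 µg/ml, where 7.21% of all tested genes were lower. The Col3a1 libraries had 1752, 1908 and 1944 CPM at 100 µg/ml, against 2461, 2588 and 3274 CPM at 1 µg/ml, with no overlap. Col3a1 differed by -0.57 ± 0.08 on the log2 scale (edgeR, adjusted p = 4.03e-06). The difference was -0.45 without library 3 of 1 µg/ml, the highest of its group for all 6 genes. Over all alternatives it ran from -0.80 to -0.45. Library 3 of 1 µg/ml and all libraries of 100 µg/ml shared 1 spelling of the column header, and libraries 1 and 2 of 1 µg/ml had another. What the spelling stands for is not given. Col1a2 had 1326, 1523 and 1528 CPM at 100 µg/ml and 1592, 1813 and 1976 CPM at 1 µg/ml, a difference of -0.30 ± 0.08 (adjusted p = 0.0145). Its call was lost without library 2 or 3 of 1 µg/ml (-0.29 and -0.24) and without library 1 of 100 µg/ml (-0.24). Library 1 of 100 µg/ml was the lowest of its group for all 6 genes. The Col1a2 call was also lost when only the libraries compared were fitted (-0.31).

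At 48 h Col3a1 remained lower at 100 µg/ml, with 2875, 2742 and 2641 CPM, than at 1 µg/ml, with 3318, 3146 and 3495 CPM. The libraries did not overlap, and the difference of -0.27 ± 0.08 (adjusted p = 0.0297) made it 1 of 6 lower, where 6.44% of all genes were. Leaving out library 1 or 3 of 1 µg/ml or any 1 library of 100 µg/ml ended the call, at values of -0.28 to -0.23. At 2 h, where 3.22% of all genes passed in either direction, none of the 6 did by edgeR. Col3a1 had 1505, 1472 and 1583 CPM at 100 µg/ml and 1830, 1693 and 1977 CPM at 1 µg/ml there, without overlap, at -0.27 ± 0.08 (adjusted p = 0.065, and 0.042 with DESeq2, which called 1 gene). An unadjusted p under 0.05 was given to 2 genes, Col3a1 and Col5a2.

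At 72 h the dose differences that passed were in the higher direction. Of the 6 genes, 3 were higher at 100 than at 1 µg/ml and none lower, where 4.99% of all tested genes were higher. Col1a1 had 1236, 1130 and 1355 CPM at 100 µg/ml, against 1039, 877 and 907 CPM at 1 µg/ml, and was higher by 0.40 ± 0.11 (log2, edgeR, adjusted p = 0.009). Col1a2 had 1844, 1900 and 2035 CPM at 100 µg/ml and 1601, 1614 and 1475 CPM at 1 µg/ml, higher by 0.30 ± 0.08 (adjusted p = 0.013). Col5a3 had 10.6, 12.5 and 13.05 CPM at 100 µg/ml and 5.54, 8.52 and 4.14 CPM at 1 µg/ml, higher by 0.98 ± 0.29 (adjusted p = 0.0214). None of the 3 genes had overlapping libraries.

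Each of these 3 calls depended on single libraries. The Col1a1 call was lost without library 2 of 1 µg/ml (0.35) or library 3 of 100 µg/ml (0.33), the Col1a2 call without library 3 of either dose (0.26 each) or with no filter on low counts (0.27), and the Col5a3 call without library 1 or 3 of 1 µg/ml (0.92 and 0.77) or library 2 or 3 of 100 µg/ml (0.95 and 0.92). Without library 3 of 100 µg/ml, 0 of the 6 genes passed in this comparison. That library was the highest of its group for all 6 genes. The genes were measured in the same libraries, so the 3 calls are not separate results. Col3a1 had 3378, 3434 and 3740 CPM at 100 µg/ml and 3256, 3067 and 2937 CPM at 1 µg/ml, with no overlap, and its difference of 0.19 ± 0.08 did not pass (adjusted p = 0.149). Col5a1 and Col5a2 differed by 0.19 ± 0.12 and 0.04 ± 0.08 and did not pass.

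The comparison of 100 with 10 µg/ml, which uses the same libraries of 100 µg/ml, gave values close to these. Col3a1 differed by -0.19, -0.67, -0.31 and 0.20 at 2, 24, 48 and 72 h, and passed at 24 and 48 h (edgeR, adjusted p = 2.04e-07 and 0.0131), 1 of 6 lower each time, where 6.66% and 6.17% of all genes were. At 2 h 0 of 6 passed with edgeR or DESeq2, 2 at an unadjusted p under 0.05, where 3.53% of all genes passed. The 48 h call of Col3a1 was lost without library 2 of 10 µg/ml (-0.22) or library 3 of 100 µg/ml (-0.28). When only the libraries compared were fitted, its 72 h difference was 0.22 and passed as higher (edgeR, adjusted p = 0.019). At 72 h Col1a1, Col1a2 and Col5a3 were higher by 0.40, 0.35 and 0.88 (adjusted p = 0.00979, 0.00401 and 0.035), 3 of 6 genes where 4.19% of all genes were higher. The Col1a2 call held under every alternative, the Col1a1 call was lost without library 1 of 10 µg/ml (0.35) or library 3 of 100 µg/ml (0.33), and the Col5a3 call was lost without library 1 or 2 of 10 µg/ml (0.91 and 0.75), without library 2 or 3 of 100 µg/ml (0.86 and 0.82) or with DESeq2.

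**Figure D2:**
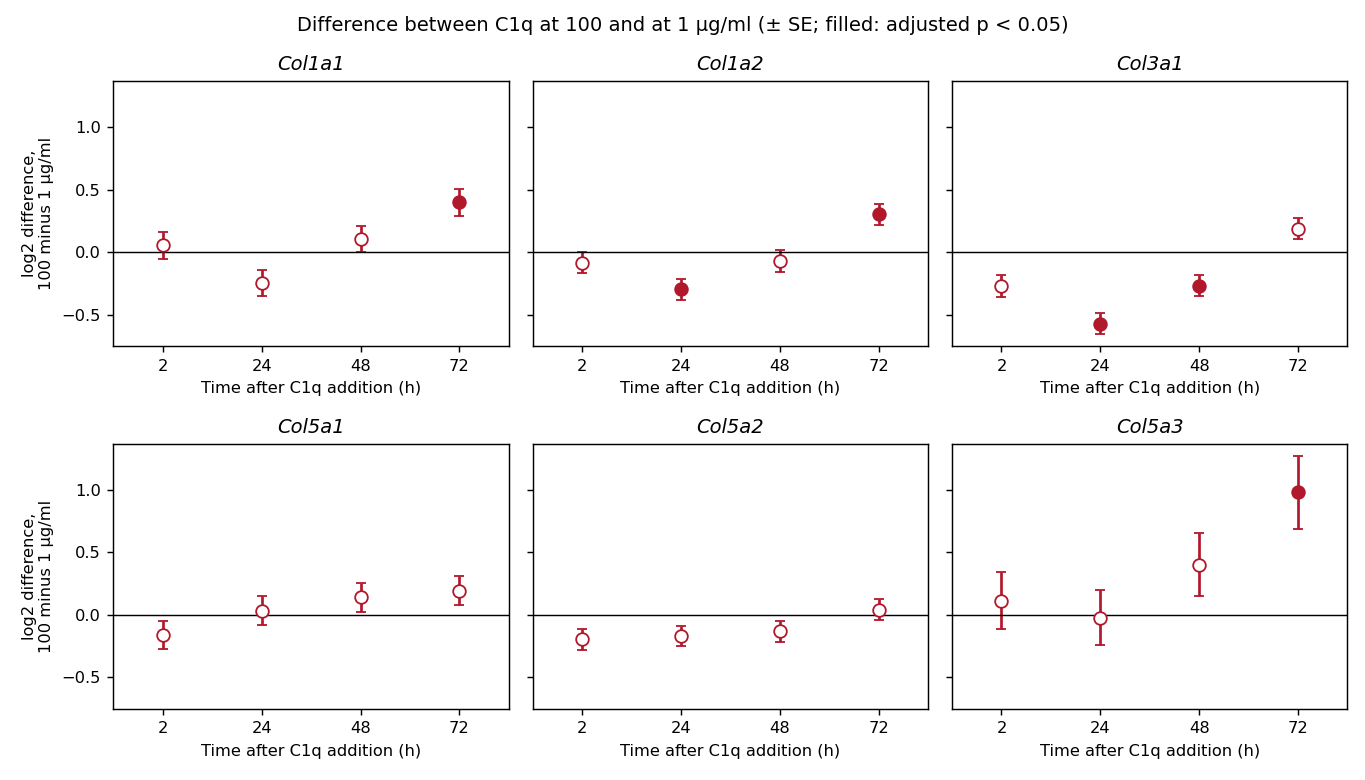
The log2 difference between C1q at 100 and at 1 µg/ml (vertical axis) for each gene at 2, 24, 48 and 72 h (horizontal axis). Bars are 1 SE, worked back from the edgeR F statistic, and points are filled where the adjusted p was under 0.05. Col3a1 lies below 0 until 48 h and above it at 72 h, and Col1a1 and Col1a2 lie below 0 at 24 h and above it at 72 h.

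The change of the dose difference with time was tested as that at 72 h minus that at 24 h. It passed for 3 of the 6 genes, all in the higher direction, where 1.06% of all tested genes did. The 3 calls rest on the same libraries and are not separate results. Passing shows that the dose difference changed, not that the order of the doses reversed. Of these 3 genes only Col1a2 passed in opposite directions at 24 and 72 h, and both of those calls were lost without single libraries. The change was 0.76 ± 0.12 for Col3a1 (log2, edgeR, adjusted p = 7.36e-05), 0.60 ± 0.12 for Col1a2 (adjusted p = 0.002) and 0.64 ± 0.15 for Col1a1 (adjusted p = 0.0121). For Col3a1 and Col1a2 the call held under every alternative, with values of 0.63 to 0.99 and 0.54 to 0.73. For Col1a1 it was lost when only the libraries compared were fitted (0.64, adjusted p = 0.064) and without library 1 of 100 µg/ml at 24 h, library 2 of 1 µg/ml at 72 h or library 3 of 100 µg/ml at 72 h (0.58 to 0.59). Col5a1, Col5a2 and Col5a3 changed by 0.16 ± 0.16, 0.21 ± 0.12 and 1.00 ± 0.37 and did not pass (adjusted p = 0.781, 0.509 and 0.199).

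Over all 4 times at once, the dose difference varied for the same 3 genes, with adjusted p of 0.000249 for Col3a1, 0.00458 for Col1a2 and 0.0263 for Col1a1 (edgeR, 3 of 6 where 6.78% of all genes passed). The Col1a1 call was lost without library 3 of 1 µg/ml or library 1 of 100 µg/ml at 24 h, without library 2 or 3 of 1 µg/ml or library 3 of 100 µg/ml at 72 h (adjusted p = 0.058 to 0.087), and when only the libraries compared were fitted (adjusted p = 0.051). The steps of 2 to 24 h and of 24 to 48 h, taken alone, passed for none of the 6 genes, where 4.89% and 0.583% of all genes passed, by DESeq2 neither, and 1 and 2 genes had an unadjusted p under 0.05. The step of 24 to 48 h in Col3a1 was 0.30 ± 0.12.

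The change can also be read within each dose. This comparison of 72 with 24 h was added after the averaged times had been seen. At 100 µg/ml, 3 of the 6 genes were higher at 72 h, where 6.37% of all genes were: Col3a1 by 0.91, Col1a2 by 0.40 and Col5a2 by 0.34 (log2, SE 0.08, edgeR, adjusted p = 1.39e-11, 0.000529 and 0.00384). The Col5a2 call was lost without library 1 of 100 µg/ml at 24 h (0.26). At 1 and 10 µg/ml, 2 of 6 were lower at 72 h, where 6.05% and 6.75% of all genes were: Col1a1 at -0.68 and -0.69, and Col5a3 at -1.41 and -1.15. Both held under every alternative, and at 1 µg/ml the other 4 genes did not pass with all libraries. Without library 3 of 1 µg/ml at 24 h, Col3a1 (0.27) and Col5a2 (0.25) passed as higher at 72 h, and without library 1 of that group Col1a2 (-0.28) passed as lower.

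Averaged over the 3 doses, the steps in time differed between the chains. Between 2 and 24 h Col3a1 rose by 0.56 ± 0.05 and Col5a1 fell by 0.41 ± 0.07, 2 of 6 genes where 57.9% of all genes passed. Between 24 and 48 h Col3a1 rose by 0.34 ± 0.05, Col5a2 rose by 0.18 ± 0.05 and Col1a1 fell by 0.25 ± 0.06, where 24.9% of all genes passed. Between 48 and 72 h Col1a1 fell by 0.21 ± 0.06 and Col5a3 fell by 0.71 ± 0.16, where 16.7% of all genes passed. This last step was not alike at each dose. Mean Col1a1 went from 1151 to 941, 1204 to 943 and 1238 to 1240 CPM at 1, 10 and 100 µg/ml. Mean Col3a1 went from 3320 to 3087, 3404 to 3055 and 2753 to 3517 CPM. Without the first 2 libraries of 1 µg/ml at 24 and at 48 h, a setting chosen after seeing the data that leaves 1 library in each of those groups, assumed to vary like the others, the Col5a2 rise was 0.09 and did not pass. Col5a2 at 24 against 2 h, at -0.10 ± 0.05, did not pass, and did with DESeq2 (-0.12), with RLE scaling (-0.11) and without 1 of 6 single libraries (-0.16 to -0.12). These were library 2 of 1 µg/ml, 3 of 10 µg/ml and 1 of 100 µg/ml at 2 h, and library 3 of 1 µg/ml and 2 and 3 of 100 µg/ml at 24 h. Col1a2 at 24 against 2 h was 0.08 and did not pass, and was 0.11 and did without library 1 of 1 µg/ml at 24 h. Col5a3 at 48 against 24 h was -0.28 and did not pass, and was -0.42 and did without library 3 of 100 µg/ml at 48 h.

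Because 2 rows of 1 library are compared, a ratio of counts needs no scaling between libraries. The log2 ratio of Col3a1 to Col1a1 was 1.64 ± 0.118 at 72 h and 0.191 ± 0.174 at 2 h (mean ± SD, n = 9 each, doses together), with ranges of 1.45 to 1.81 and of 0.0135 to 0.542 that did not overlap. The difference of 1.45 gave an exact permutation p of 4.11e-05, two-sided, the smallest that this number of libraries allows, and 6.17e-05 adjusted over the 6 ratio tests. The ratio of Col1a2 to Col1a1 was 0.687 ± 0.0946 at 72 h and 0.0721 ± 0.100 at 2 h, with the same exact p values, and that of Col5a2 to Col5a1 was 2.99 ± 0.185 at 72 h and 2.49 ± 0.0643 at 2 h, again with the same. In counts, Col3a1 was at 3.29 ± 0.189, 3.24 ± 0.0798 and 2.84 ± 0.169 times Col1a1 at 72 h with 1, 10 and 100 µg/ml, and at 1.39 ± 0.0827 times in untreated cells (SD, n = 3 each). The 9 libraries of each time are of 3 doses, which were pooled here.

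Between doses, permuted within time in an exact test, the log2 ratio of Col3a1 to Col1a1 averaged 0.813 at 100 µg/ml and 1.12 at 1 µg/ml over the 4 times (n = 12 each), a difference of -0.311 (two-sided exact permutation p = 1.25e-05, adjusted 6.17e-05). The ratio of Col5a2 to Col5a1 differed by -0.170 (exact permutation p = 0.00154, adjusted 0.00185). The ratio of Col1a2 to Col1a1 differed by -0.120 (exact permutation p = 0.00335, adjusted 0.00335). It no longer passed without any 1 library of 100 µg/ml at 2 h or of 1 µg/ml at 72 h. The values there were -0.103 to -0.0792, the smallest without library 2 of 1 µg/ml at 72 h. The means were pooled over the times, so leaving out 1 library also changed the mix of times. These losses therefore cannot be told apart from that change of mix.

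**Figure D3:**
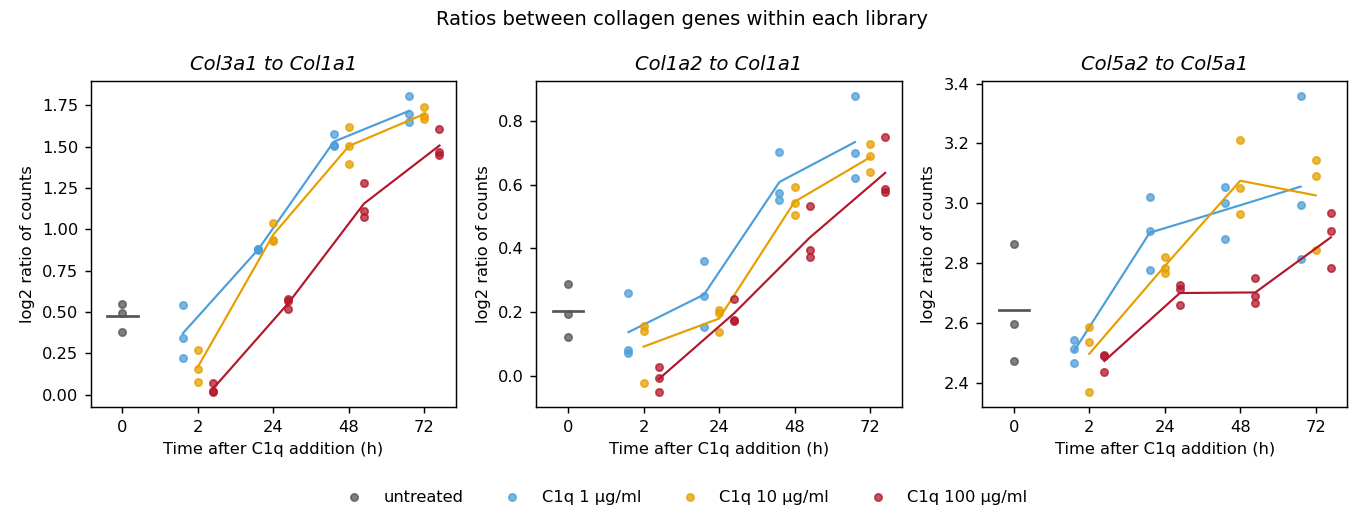
The log2 ratio of counts between 2 collagen genes in each library (vertical axes, not starting at 0) against time after C1q addition in hours (horizontal axes, equally spaced), with lines through the means of the 3 libraries of each dose and a bar for untreated cells. All 3 ratios are higher at 72 h than at 2 h, and Col3a1 to Col1a1 is lower at 100 than at 1 µg/ml at each time.

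Together the 6 genes held 0.512% to 0.861% of a library's counts. The share was 0.635 ± 0.0310%, 0.625 ± 0.0138% and 0.797 ± 0.0597% at 72 h with 1, 10 and 100 µg/ml, and 0.557 ± 0.0416% in untreated cells (SD, n = 3). Over the 13 group means, Col1a1 and Col5a3 had a Pearson r of 0.92, Col1a2 and Col3a1 of 0.70, Col1a1 and Col1a2 of 0.12, and Col1a1 and Col3a1 of -0.55. These are descriptions over groups that share times and doses, with no test. In the same measure over 10296 genes, the genes most like Col3a1 were Fbln1 (0.98), Olfml3 (0.97), Fxyd1 (0.97), Lbp (0.97) and Cacna1d (0.96). Those most like Col1a1 were Aldh1l2 (0.94), Col5a3 (0.92), Cyb5r1 (0.92), Gadd45a (0.91) and Slc27a6 (0.91), and those most like Col5a1 were Ipmk (0.96), Il11 (0.96), Xpot (0.95), Zbtb11 (0.95) and Nid1 (0.95).

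Of 13 tested genes for fibril-associated proteins, 11 rose and 1 fell at 72 h at both 1 and 100 µg/ml, with list medians of 1.10 and 1.21. Over all tested genes, 38.2% passed in either direction at 1 µg/ml and 45.8% at 100 µg/ml, with medians of 0.02 and 0.05. Dpt, for dermatopontin, rose by 3.92 with 1 and by 3.26 with 100 µg/ml (log2, edgeR, adjusted p = 2.52e-28 and 8.58e-25). Fmod (fibromodulin) rose by 3.02 and 3.06 and Dcn (decorin) by 2.09 and 2.01, both leucine-rich proteoglycans that bind collagen. Col12a1, a collagen on fibril surfaces, fell by 0.70 and 1.16. Dpt was lower at 100 than at 1 µg/ml at 24 h (-0.70) and at 72 h (-0.66), where Ogn was higher at 72 h (0.59). The 24 h call of Dpt was kept in 12 of 13 alternatives and lost where library 3 alone stood for 1 µg/ml.

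Genes for cutting off the propeptides rose at 72 h in 5 of 7 tested and fell in 1 (Tll1), at both doses, with list medians of 0.36 and 0.74, where 38.2% and 45.8% of all genes passed. Adamts2, which removes the amino propeptide, rose by 0.88 with 1 and by 1.00 with 100 µg/ml. Pcolce, which enhances removal of the carboxyl propeptide, rose by 0.36 and 0.74, and at 1 µg/ml its call was lost without untreated library 2 (0.30). Of 5 cross-linking genes, 1 rose (Loxl1, by 0.41 with 1 and by 0.42 with 100 µg/ml) and 3 fell, such as Loxl3 by 0.98 and 0.78, while Lox itself was at -0.11 and -0.06 and did not pass. The medians of the cross-linking genes were -0.34 and -0.50.

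Of 17 tested genes for folding and modifying procollagen, 5 rose and 3 fell at 1 µg/ml, and 4 rose and 5 fell at 100 µg/ml, at 72 h. The list medians were 0.02 and 0.03, and 38.2% and 45.8% of all genes passed, so nothing is read from these counts. Serpinh1, for the collagen chaperone HSP47, fell by 0.39 and 0.47, and P3h3, a prolyl 3-hydroxylase family member, rose by 0.97 and 1.06. At 24 h Serpinh1 was lower at 100 than at 1 µg/ml (-0.46 ± 0.09, edgeR, adjusted p = 0.000159), as Col3a1 was, with values of -0.57 to -0.26 over the alternatives. In the same list P4ha3 (-0.51) and Ppib (-0.48) were also lower there, where 7.21% of all tested genes were. P3h1 was higher (0.34), a call kept in 1 of 13 alternatives. The calls of Serpinh1, P4ha3 and Ppib were each kept in 12 of 13 alternatives. Each was lost where library 3 alone stood for 1 µg/ml, a fit that takes its spread from the other groups. Among 10 genes for procollagen export, 1 rose and 2 fell at 1 µg/ml and 0 rose and 3 fell at 100 µg/ml, with list medians of -5.4e-05 and -0.19, where 38.2% and 45.8% of all genes passed. Mia3, for the export receptor TANGO1, fell by 0.44 at both doses.

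At 72 h against untreated cells, 38.2% of all tested genes passed at 1 µg/ml and 45.8% at 100 µg/ml, with medians of 0.02 and 0.05. Of 7 tested receptors, 3 rose and 3 fell at 1 µg/ml and 4 rose and 2 fell at 100 µg/ml, with list medians of 0.03 and 0.35. Itga2, a chain of a collagen-binding integrin, fell by 1.49 and 1.99, and Mrc2, an endocytic collagen receptor, was higher at 100 than at 1 µg/ml at 72 h (0.66). Of 8 genes for collagen breakdown, 4 rose and 1 fell at 1 µg/ml and 4 rose and 3 fell at 100 µg/ml. Mmp2 rose by 1.62 and 1.67 and Ctsk (cathepsin K) by 1.03 and 1.22, while Mmp8 and Pepd fell by 0.92 and 0.82 at 100 µg/ml. Mmp8 was also lower at 100 than at 1 µg/ml at 24 h (-1.37) and at 72 h (-1.03), under every alternative. Of all tested genes, 7.21% and 6.51% were lower there. The list medians for breakdown were 0.56 and 0.13. Of 16 regulators of type I collagen genes, 1 rose and 2 fell at 1 µg/ml and 4 rose and 3 fell at 100 µg/ml, with list medians of -0.05 and -0.13. Tgfbr2, a receptor of TGF-beta, rose by 1.07 and 1.11, and Ybx1, for a Y-box protein, fell by 0.78 and 1.14. Of 4 other fibrillar collagen genes tested, 1 rose and 1 fell at 1 µg/ml, and 3 rose and 1 fell at 100 µg/ml, with list medians of 0.18 and 1.82. Among the 4, Col11a2 had 0 to 12 counts a library and Col24a1 had 0 to 18, so these medians rest partly on genes with few counts. Col11a1 fell by 1.28 with 1 and by 1.58 with 100 µg/ml, and Col27a1 rose by 1.75 at 100 µg/ml and was at 0.47 at 1 µg/ml, which did not pass.

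**Figure D4:**
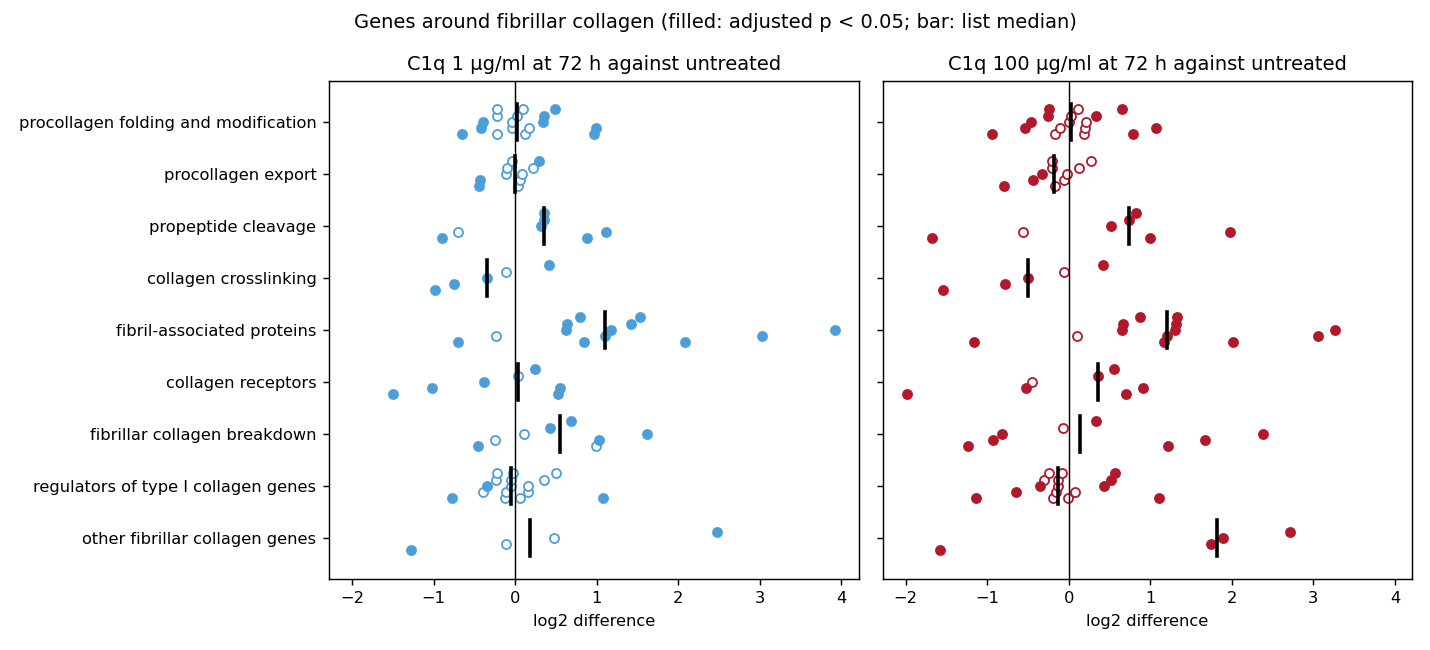
The log2 difference from untreated cells at 72 h (horizontal axes) of each tested gene in 9 lists around fibrillar collagen, for C1q at 1 µg/ml on the left and 100 µg/ml on the right, with 1 point per gene, filled where the edgeR adjusted p was under 0.05, and a bar at each list's median. Fibril-associated genes lie mostly above 0 at both doses, and cross-linking genes mostly below.

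Markers of other cell types also differed between groups. The summed level of 12 macrophage markers was 1276 ± 52.3, 1475 ± 120 and 1042 ± 107 CPM at 72 h with 1, 10 and 100 µg/ml, and 268 ± 12.7 CPM in untreated cells (SD, n = 3). Adgre1 and Mrc1 were at 0 counts in the libraries where they were lowest, and all 12 markers were higher at 72 h than in untreated cells at both 1 and 100 µg/ml, where 38.2% and 45.8% of all genes passed in either direction. The summed level of 9 epithelial markers was between 88.6 and 122 CPM in the 9 libraries of 72 h and between 520.3 and 616 CPM in untreated cells. That of 8 fibroblast markers was 3092 ± 80.1, 3218 ± 115 and 3074 ± 124 CPM at 72 h and 3555 ± 85.0 CPM in untreated cells. The fibroblast sum is weighted to Vim, with 148549 counts over all libraries, against 11503 for Fbln1. Fbln1 had a Pearson r of 0.98 with Col3a1 over the group means, so the sum does not describe each marker. Between doses at 72 h, 6 of 12 macrophage markers and 3 of 5 mesothelial markers were lower at 100 than at 1 µg/ml and 0 higher, where 6.51% of all tested genes were lower. Hba-a1 and Hba-a2, erythroid markers, had 2 counts each in all 39 libraries. The part of these cell types in the collagen results was not tested.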

How the data were processed

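Transcript 5′ ends of cultured mouse lung fibroblasts were sequenced in 39 libraries, 13 groups of 3. The authors deposited 1 table of raw counts per gene. The submitters' processing notes name cutadapt 2.1.0, Bowtie2 2.4.2 and the build GRCm38. How reads were counted, and whether strand or molecular identifiers were used, is not given in the sources. The headers of 9 columns are spelled differently and were matched by serial number. Depth was 1806106 to 3012518 counts a library, so Col5a3, at 10 to 53 counts, was measured least precisely.

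Genes were filtered with filterByExpr, leaving 14419 genes with 99.4% of the counts, scaled by TMM and tested with edgeR 4.0.16 (R 4.3.3, limma 3.58.1), a quasi-likelihood fit over all 39 libraries with 34 comparisons. P-values were adjusted by Benjamini-Hochberg over all tested genes at 0.05. The SE of a log2 difference was its absolute value divided by the square root of the edgeR F statistic. CPM compares 1 gene between libraries, not genes with each other. Ratios of counts had 0.5 added and were tested by exact permutation. DESeq2 1.42.0, RLE scaling, no filter, fits of only the libraries compared, scaling without the 6 genes, leaving out the row LOC118568312 (6.10% to 14.1% of counts) and leaving out each library were alternatives. Replicates differed by more than counting noise (chi-square per degree of freedom 1.31 to 8.48). The fit was tested on simulated data.

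The members and gene lists were chosen with earlier results of these data known. All 6 members were tested in every comparison, and the text does not give every value. From each list, up to 4 genes with the largest difference could be named. They needed an adjusted p under 0.05, a mean log2 CPM of at least 3 and libraries that did not overlap. Not all such genes are named, and some outside this rule are, such as Serpinh1 at 72 h. Other list members are named where the text counts them, and for Col1a1, Col3a1 and Col5a1 the 5 most correlated genes.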

Additional observations from a re-analysis of the deposited data

Results flagged for a closer look

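The dose difference between 100 and 1 µg/ml differed between 72 and 24 h for 3 of the 6 collagen genes, by a test of that difference. The change on the log2 scale was 0.76 for Col3a1, 0.60 for Col1a2 and 0.64 for Col1a1. Over all 4 times the edgeR adjusted p was 0.000249 for Col3a1, 0.00458 for Col1a2 and 0.0263 for Col1a1. The Col1a1 results were the ones that single libraries could end. Groups of 3 libraries are too small for a test of single libraries that stand apart.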

How the results depend on the processing

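Of 53 calls of a collagen gene, 32 held under every alternative and with each library left out, and 0 of the 53 changed direction. Among differences that did not pass, 124 alternative values had the other sign. Counts of the 6 genes called moved by over 1.5 times as follows. With DESeq2, 2 passed at 10 µg/ml and 2 h against untreated cells, and 1 for 100 against 1 µg/ml at 2 h. With no filter on low counts, 1 passed at 1 µg/ml and 48 h. With only the libraries compared, 1 passed at 100 µg/ml and 2 h, 1 at 1 µg/ml and 24 h, 3 at 10 µg/ml and 24 h and 2 at 100 µg/ml and 48 h against untreated cells, 1 for 100 against 1 µg/ml and 3 for 100 against 10 µg/ml at 24 h. Without the first 2 libraries of 1 µg/ml at 24 and at 48 h, which splits them by the spelling of their column headers and was chosen after seeing the data, each of these groups was 1 library, assumed to vary like the other groups. There 4 passed at 1 µg/ml and 24 h, 1 at 1 µg/ml and 48 h, 0 for 100 against 1 µg/ml at 48 h and 1 for the dose difference of 24 minus 2 h.

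With 1 library left out, counts ran over 1 to 2, 0 to 1 and 0 to 3 for 100 against 1 µg/ml at 24, 48 and 72 h, and 0 to 1 and 1 to 3 for 100 against 10 µg/ml at 48 and 72 h. They ran over 0 to 1, 1 to 2 and 1 to 2 at 1 µg/ml and 2, 24 and 48 h, 0 to 1 and 1 to 3 at 10 µg/ml and 2 and 48 h against untreated cells, and 2 to 4 for 72 against 24 h at 1 µg/ml. The log2 ratio of Col1a2 to Col1a1 between doses ran from -0.159 to -0.0792, where leaving out 1 library also changed the mix of times. The cause of these shifts was not tested, and each of these settings also had 1 library fewer. No scaling moved the median of all genes by over 0.1. The share of counts in the 6 genes without LOC118568312 was 0.910% at 100 µg/ml and 72 h and 0.602% in untreated cells.

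Depth limits Col5a3 most. The intervals and errors cover the spread between libraries, and since no untreated cells of later times were analysed here, C1q and time cannot be told apart.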
